A study of Mus musculus with 67 samples.

Results

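The elements described here are the open chromatin regions whose annotated gene was 1 of 7 genes of developmental timing: Lin28a, Lin28b, Hmga2, Hmga1, Nr6a1, Nr2f1 and Nr2f2. The deposited annotation gives each region the gene with the nearest transcription start site (TSS), so the gene names mark loci, and which gene a region acts on was not measured. Of the 111638 regions with values, 108 were elements of these loci: 41 at Nr2f1, 37 at Nr2f2, 11 at Hmga2, 9 at Lin28b, 4 at Lin28a, 3 at Hmga1 and 3 at Nr6a1. A further 15 annotated regions of the same genes, among them the one over the Nr2f1 start, were not analysed here. Each element is named by its gene and the distance in bases from its centre to the TSS, so that Lin28b +58793 lies inside the gene and Nr2f2 -481442 lies upstream.

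Chromatin accessibility was measured by CaTS-ATAC, which is ATAC-seq on cells that were fixed, stained for intracellular transcription factors and sorted. HM1 mouse embryonic stem cells were differentiated to neuromesodermal progenitors (NMPs), sampled at day 3 without SAG, and then in retinoic acid to neural progenitors (NPs) at days 4, 5 and 6 under 0, 10, 100 or 500 nM SAG, an agonist of Smoothened that activates Sonic hedgehog signaling. SOX2-positive NPs were sorted as p0-1 (PAX6 without NKX6.1, from 0 and 10 nM), p2 (NKX6.1 with PAX6, from 10 and 100 nM), pMN (OLIG2, from 100 and 500 nM) and p3 (NKX2.2 without OLIG2, from 100 and 500 nM). The 67 samples fall into 25 conditions, 17 with 3 replicates and 8 with 2, which the study describes as separate differentiations of the 1 cell line. Here the 2 SAG concentrations of a cell type and day were pooled, giving 3 NMP samples and 4 to 6 samples for every NP type and day. The pooled concentrations share replicate numbers, so these samples may not all be separate differentiations.

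LIN28A and LIN28B are RNA-binding proteins that block maturation of the let-7 microRNAs and keep cells in an early state, and HMGA2 and HMGA1 are chromatin proteins of the AT-hook family, with Hmga2 a classical let-7 target. NR6A1, also called GCNF, is an orphan nuclear receptor of the early embryo and trunk. NR2F1 and NR2F2, also called COUP-TFI and COUP-TFII, are orphan nuclear receptors whose genes respond to retinoic acid and are expressed in the developing nervous system. Both Nr2f genes sit beside long stretches of DNA without protein-coding genes.

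The central 200 bases of 6 elements are given because the results below turn on them: Nr2f2 -422350 had its highest values in NMPs, Nr2f1 -383123 was lower in p3, and the other 4 had higher values after day 3. The sequence is that of the GRCm38 (mm10) plus strand from RefSeq's assembly, in lower case, with matches on either strand to 8 short motifs in capitals.
Lin28a -7140, chr4:134025857-134026056: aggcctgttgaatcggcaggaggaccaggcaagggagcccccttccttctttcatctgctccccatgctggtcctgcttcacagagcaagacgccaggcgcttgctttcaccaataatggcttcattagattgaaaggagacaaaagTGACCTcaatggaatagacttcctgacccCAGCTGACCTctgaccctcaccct
Lin28b +58793, chr10:45411309-45411508: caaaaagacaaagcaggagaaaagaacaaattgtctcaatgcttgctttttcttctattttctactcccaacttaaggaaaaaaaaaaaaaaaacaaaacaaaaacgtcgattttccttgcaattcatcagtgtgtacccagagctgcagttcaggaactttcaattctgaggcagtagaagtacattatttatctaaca
Nr2f1 -672922, chr13:78871696-78871895: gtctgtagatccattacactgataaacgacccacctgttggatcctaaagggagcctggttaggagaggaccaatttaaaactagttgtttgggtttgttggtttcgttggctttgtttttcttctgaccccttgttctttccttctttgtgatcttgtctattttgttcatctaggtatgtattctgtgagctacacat
Nr2f1 -383123, chr13:78581897-78582096: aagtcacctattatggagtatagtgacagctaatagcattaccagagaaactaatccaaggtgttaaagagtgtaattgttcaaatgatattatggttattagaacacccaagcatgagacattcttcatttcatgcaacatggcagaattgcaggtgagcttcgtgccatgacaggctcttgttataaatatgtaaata
Nr2f2 -481442, chr7:70848089-70848288: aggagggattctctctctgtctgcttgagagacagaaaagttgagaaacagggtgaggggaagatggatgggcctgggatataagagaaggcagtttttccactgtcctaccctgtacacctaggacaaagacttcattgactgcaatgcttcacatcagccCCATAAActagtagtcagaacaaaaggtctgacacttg
Nr2f2 -422350, chr7:70788997-70789196: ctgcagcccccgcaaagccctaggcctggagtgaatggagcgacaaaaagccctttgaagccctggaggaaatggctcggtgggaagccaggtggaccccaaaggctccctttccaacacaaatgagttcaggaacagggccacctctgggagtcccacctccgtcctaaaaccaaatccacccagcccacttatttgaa
The motifs were the nuclear receptor half-site AGGTCA, found in the same window of 13.8% of all 111638 regions, SOX ACAATG (15.2%), TCF/LEF CTTTGAT (3.4%), FOX TGTTTAC (3.32%), octamer ATGCAAAT (1.58%), CDX TTTATGG (2.67%), and the E-boxes CAGCTG (14.9%) and CATATG (3.46%). In Lin28a -7140 the capitals mark 2 nuclear receptor half-sites and 1 CAGCTG E-box, which shares bases with the second half-site, and in Nr2f2 -481442 they mark 1 CDX match. No listed motif was matched in the other 4 windows.

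The deposited values are variance-stabilized (VST) counts, which were turned back into normalized read counts, meaning reads in an element divided by the sample's size factor. Recovered reads in elements ranged from 9298160 to 29985325 per sample with a median of 20254011, and the 3 p3 libraries of day 4 at 100 nM held 9298160, 9577692 and 13974633, below both others of that cell type and day. The day 4 p0-1 library at 10 nM, replicate 3, had the largest share of its reads in promoter elements, 40.2%, where the lowest library had 31.0%. Among marker elements nearest the TSS, Cdx2 had a mean of 3686 normalized counts in NMPs and 264 in pMN at day 6, Olig2 had 2325 in pMN at day 6 against 408 in p0-1, Dbx1 had 2549 in p0-1 against 1055 in pMN, and Foxa2 had 1662 in p3 against 277 in pMN. Not every marker separated in this way. Nkx2-9 had 1914 in p3 and 2091 in pMN at day 6, with overlapping samples. Tbx6 had 778 in NMPs and 827 in pMN at day 6. No element of Nkx2-2 was analysed here. The summed count at the 3 neuronal markers listed (Tubb3, Elavl3 and Dcx) lay between 2549 and 3082 in NMPs, between 1223 and 1662 in pMN at day 4 and between 2799 and 3606 at day 6, so that NMPs and pMN at day 6 overlapped. From NMPs to pMN at day 4 the means went from 1722 to 776 at Tubb3, from 1160.1 to 582 at Elavl3 and, in the other direction, from 21.9 to 71.0 at Dcx. The summed count at the 2 pluripotency markers (Pou5f1 and Nanog) lay between 1264 and 2093 in NMPs and between 93.4 and 141 in pMN at day 4. The part of either in the results below was not tested. A normalized count averages over all sorted cells, so more open cells and more reads per open cell cannot be told apart.

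At 5 of the 7 genes the nearest element covered the annotated start, and accessibility there was present in NMPs and in every NP type. At Lin28a +239 (chr4:134016876-134020278, intron 1) the 3 NMP samples had 1903, 1941 and 1998 normalized counts and the pMN samples of day 6 had 1689.8, 1693, 1905 and 1763. None of the 5 elements over a start passed the test in any of the 13 comparisons made, where passing, or being called, means a limma p adjusted over all tested regions under 0.01 and more than a 2-fold ratio of mean normalized counts (for the difference of differences, over 1 on the VST scale). From NMPs to pMN at day 4 the log2 fold changes were -0.12 at Lin28a +239, -0.56 at Hmga2 +42 (chr10:120474380-120478474), -0.57 at Hmga1 -99 (chr17:27554928-27558082) and -0.66 at Nr6a1 +234 (chr2:38925107-38927347, exon 1), beside a median of -0.49 over all 31555 regions tested. Relative to that median Lin28a +239 lay above, and its log2 fold change turned to 0.30 with every sample centered on its own median, while the other 3 lay below.

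The annotated start of Lin28b was the least open of the 5. The gene's outer bounds reach base 45486314 of chr10, however, which lies in another element, Lin28b -16123 (chr10:45485560-45487088). That element had means of 1738 in NMPs, 1377 in pMN at day 4 and 2005 in pMN at day 6. Lin28b +53 (chr10:45469044-45471252) had 176, 208 and 184 in NMPs, between 182 and 224 with a median of 199 in the 6 pMN samples of day 4, and 349, 296, 313 and 284 in the 4 of day 6. Every day 6 pMN sample was above every day 4 one, but the difference stayed under 2-fold (log2 fold change 0.62, SE 0.10 on the VST scale, limma adjusted p = 0.000189). From day 4 to day 6 its log2 fold change was 0.89 in p0-1, 0.66 in p2 and 0.47 in p3, with adjusted p of 0.000409, 0.000156 and 0.073 by limma.

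**Figure D1:**
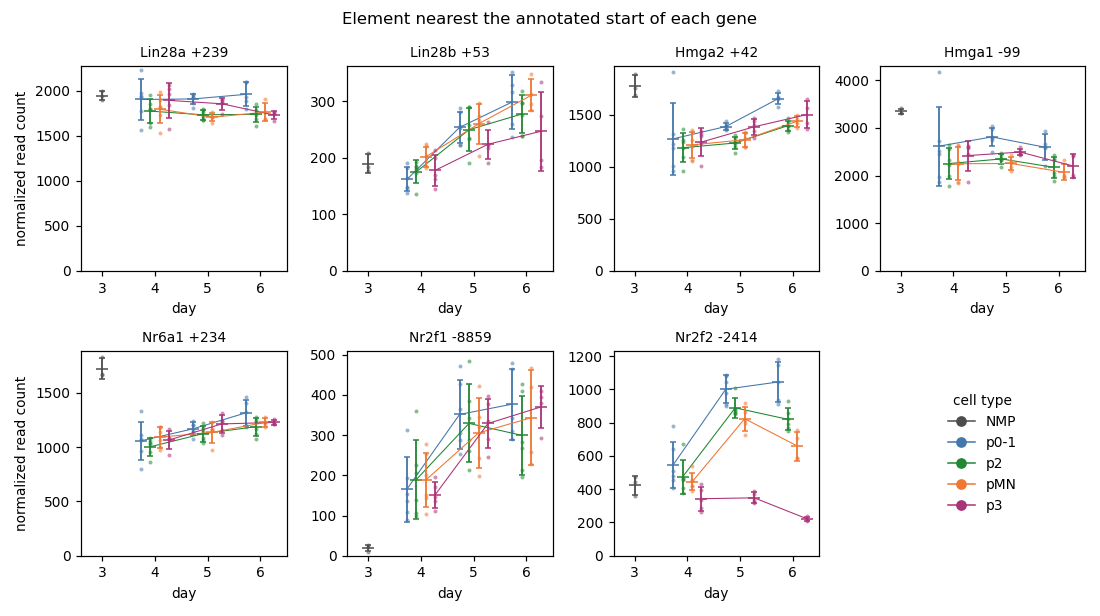
Normalized read count (y axis) at the element nearest the annotated start of each of the 7 genes, by day (x axis) and cell type (color). Points are samples, dashes are means and bars are SD; the elements over the starts of Lin28a, Lin28b, Hmga2, Hmga1 and Nr6a1 were open in NMPs already, while Nr2f1 -8859 had a mean of 19.0 there and Nr2f2 -2414 had its lowest mean in p3 at day 6, 222.

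The called elements lay away from the annotated starts. Over the 25 condition means the SD of a member element was 0.68 VST units at the median, and 0.82 for the 74 elements more than 100 kb from the TSS, against 0.56 for all regions in the table. The study reports a higher dynamic range at distal elements than at promoters in these data. No matching value was taken for other distal regions alone, so the larger spread may not be particular to these loci. From NMPs to the mean of the day 6 conditions, 37 of 41 Nr2f1 elements and 30 of 37 Nr2f2 elements had higher values, with median differences of 1.85 and 1.64 VST units, while 10 of 11 Hmga2 elements and 3 of 3 Hmga1 elements had lower ones, with medians of -1.58 and -0.57. Of all 111638 regions 56.4% were higher and 43.6% lower, with a median of 0.26, and of the 108 members 71.3% were higher, with a median of 1.43. At Lin28b 7 of 9 were higher, at Lin28a 1 of 4 and at Nr6a1 1 of 3. These counts take every element, have no test behind them, and all use the same 3 NMP samples. Only 39 of the 108 elements had a mean above 100 normalized counts over all samples, the rest being weakly open.

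**Figure D2:**
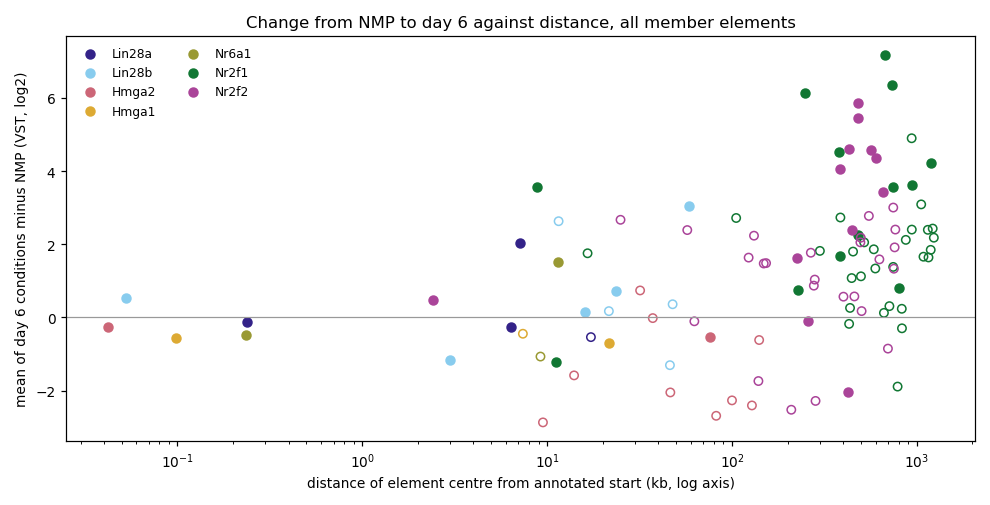
Difference in VST between the mean of the 8 day 6 conditions and NMPs (y axis, log2) against the distance of each of the 108 elements from its gene's annotated start (x axis, kb, log axis). Filled points have a mean above 100 normalized counts and open points do not; the 5 elements within 1 kb lie between -0.57 and 0.53, and the largest rises, such as Nr2f1 -672922 and Nr2f2 -481442, lie far from the start.

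The first comparison asks how the loci differ between NMPs and the NPs of day 4. In pMN, 17 of 32 rose and 3 fell, the tested elements being those that averaged over 100 normalized counts across the samples compared, where 21.2% of all tested regions rose and 27.3% fell. In p0-1, 13 of 30 rose and 2 fell (background 18.4% and 23.2%), and 15 rose and 3 fell without the library of the largest promoter share. In p2, 16 of 33 rose and 4 fell (background 20.8% and 27.3%). In p3, 16 of 34 rose and 2 fell (background 17.8% and 27%), and 13 rose and 3 fell without the 3 shallow p3 libraries. The median log2 fold change of the tested members was 1.28 in pMN, against the median over all regions given above. All 4 comparisons share the NMP samples, and an element seen mainly in one group passes the filter only where it is open there. Without that filter, 62 of the 108 rose and 13 fell in pMN, beside 35.3% and 23.1% of all 111638 regions.

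The Nr2f1 and Nr2f2 loci held 14 of the 17 elements that rose in pMN, 7 of 9 tested at Nr2f1 and 7 of 10 at Nr2f2, which together made up 19 of the 32 tested. Nr2f2 -481442 and Nr2f1 -672922 were picked for the largest rise from NMPs to day 6 at their locus, so their values entered the choice. Nr2f2 -481442 (chr7:70847685-70848691, intergenic) had 13.3, 9.44 and 14.0 normalized counts in the 3 NMP samples and between 1242 and 1514 with a median of 1359 in the 6 pMN samples of day 4 (log2 fold change 6.80, SE 0.11 on the VST scale, limma adjusted p = 1.7e-14). No NP sample of any type came near the NMP values, the lowest of day 4 being 660.1 in p3. Nr2f1 -672922 (chr13:78870745-78872845, intergenic) had 9.7, 4.05 and 8.62 in NMPs and between 158 and 629.8 with a median of 437 in pMN at day 4 (log2 fold change 5.77, SE 0.32 on the VST scale, limma adjusted p = 4.59e-09). The spread at day 4 was wide, and the 2 lowest pMN values were those of replicate 2. Nr2f1 -8859 (chr13:78206988-78208477), the Nr2f1 element with values nearest the gene, lies in intron 1 of the neighboring noncoding gene A830082K12Rik. It had 9.7, 25.6 and 21.5 in NMPs and between 104 and 278 with a median of 176 in pMN (log2 fold change 3.31, SE 0.27 on the VST scale, limma adjusted p = 2.08e-07).

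Not every element of the 2 loci opened. Nr2f2 -422350 and Nr2f1 -11223 were picked for the largest fall from NMPs to day 6 at their locus among elements with a mean above 100. Nr2f2 -422350 (chr7:70788020-70790173, intergenic), downstream of the strongest riser of its locus, nearer the gene, had 558, 813 and 1088 in the 3 NMP samples and between 98.4 and 144 with a median of 119 in pMN at day 4, with no overlap (log2 fold change -2.78, SE 0.18 on the VST scale, limma adjusted p = 2.02e-09). It fell in p0-1, p2 and p3 as well, with log2 fold changes of -2.93, -2.83 and -3.32. Nr2f1 -11223 (chr13:78209096-78211096), a neighbor of Nr2f1 -8859 in the same intron, had 513, 459 and 730.2 in NMPs and 276 ± 112 (SD, n = 6) in pMN. It was called in pMN and p2, at -1.04 and -1.04, but with every sample centered on its median the log2 fold change in both was -0.64 and it was not called, and without replicate 1 or replicate 2 it lost both calls too, at log2 fold changes between -0.99 and -0.93. In p0-1 it was not called, at -0.98 (limma adjusted p = 0.0103), and was called without the library of the largest promoter share, at -1.23 (limma adjusted p = 0.000594).

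Within Lin28b the elements moved in both directions. Lin28b +58793 and Lin28b -2980 were picked for the largest rise and the largest fall from NMPs to day 6, so their values entered the choice. Lin28b +58793 (chr10:45410447-45412370), in the last intron, had 35.2, 28.3 and 91.5 in NMPs and between 272 and 380.0 with a median of 301 in pMN at day 4 (log2 fold change 2.58, SE 0.23 on the VST scale, limma adjusted p = 9.18e-08). It also rose in p2 and p3, at 2.43 and 1.48, and in p0-1 had a log2 fold change of 1.63 that missed the threshold (limma adjusted p = 0.0183), 1 p0-1 sample at 35.4 lying among the NMP values. That sample is the library with the largest promoter share, and without it the p0-1 difference was called, at 1.84 with a limma adjusted p of 0.000275. Without replicate 1 the p3 call was lost, with a limma adjusted p of 0.0106. Lin28b +23744 rose in pMN from 102 ± 28.5 (SD, n = 3) to 235 ± 20.3 (SD, n = 6). In contrast Lin28b -2980 (chr10:45472344-45474019) lies upstream of the annotated start but inside the gene's outer bounds. It had 264, 332 and 256 in NMPs and between 113 and 151 with a median of 131 in p2. It fell in p2 (log2 fold change -1.11, SE 0.14 on the VST scale, limma adjusted p = 4.65e-06) and in p0-1, at -1.06. In pMN and p3 its log2 fold changes were -0.91 and -0.79, under 2-fold. With samples centered on their medians the 2 calls were lost, at -0.64 in p0-1 and -0.665 in p2.

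At Lin28a an upstream element had its highest mean at day 5 in every NP type, and the pMN samples are given here. Lin28a -7140 (chr4:134025194-134026719, intergenic) had 17.0, 12.1 and 21.5 in NMPs, between 67.0 and 130.4 with a median of 104 in pMN at day 4, 210.4, 201, 304, 152 and 305 at day 5 and 97.7, 162, 78.2 and 218 at day 6. The NMP samples lay below all pMN samples, while days 4 and 6 overlapped. It was too weakly open to enter the NMP comparisons with the filter, and from day 4 to day 6 in pMN its log2 fold change was 0.47 (limma adjusted p = 0.21). Lin28a +6369 (chr4:134011269-134013625, intron 2) had a p3 mean of 1602 ± 172 (SD, n = 5) on day 4, under 2-fold from 887 ± 221 (SD, n = 4) on day 6, a log2 fold change of -0.85 (limma adjusted p = 0.000355). In the other types it was -0.46 in p0-1, -0.94 in p2 and -0.85 in pMN. The day 6 pMN samples were 411, 872, 477 and 868, with both replicate 2 samples below both replicate 3 samples.

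The Hmga2 locus lost weak elements. Only 2 of its 11 elements passed the filter on the mean: Hmga2 +42 over the start and Hmga2 -76247 (chr10:120551851-120553581, intergenic), which had 1206, 1167 and 1021 in NMPs and 848 ± 76.0 (SD, n = 6) in pMN at day 4 (log2 fold change -0.42, SE 0.10 on the VST scale, limma adjusted p = 0.000882), a difference under 2-fold. With no filter on the mean, 6 of the 11 fell from NMPs to pMN at day 4 by limma at an adjusted p under 0.01 and 0 rose, with NMP means between 61.8 and 181, where 23.1% of all regions fell and 35.3% rose under the same rule. One of these, singled out after its values were seen, is Hmga2 -9504 (chr10:120485534-120486413), which had 70.3, 101 and 95.8 normalized counts in NMPs and between 0 and 5.96 with a median of 5.17 in pMN at day 4. It had 0.896, 2.82, 2.0 and 4.67 in pMN at day 6, and no sample of either day overlapped the NMPs. At Hmga1, Hmga1 -21558 (chr17:27534634-27535459, intergenic) had 278, 239 and 236 in NMPs and between 99.8 and 134 with a median of 123 in pMN at day 4, and decreased by 1.05, 1.05 and 1.02 on the log2 scale in pMN, p2 and p3. Those 3 calls lay just past 2-fold and were lost with samples centered on their medians, where the log2 fold changes were -0.63, -0.61 and -0.57, and without replicate 1, at -0.95, -0.94 and -0.96. Without the shallow p3 libraries the p3 call was lost as well, at -0.93.

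At Nr6a1 an element in intron 1 opened while the start did not. Another intron element nearer the start, Nr6a1 +9216, changed by -1.07 VST units from NMPs to the mean of the day 6 conditions. That element was too weakly open to be tested. Nr6a1 +11475 (chr2:38914163-38915810) had 47.3, 60.7 and 79.7 in NMPs and between 139 and 244 with a median of 181 in pMN at day 4 (log2 fold change 1.54, SE 0.19 on the VST scale, limma adjusted p = 6.97e-06), and it rose in p0-1, p2 and p3 too, at 1.52, 1.66 and 1.63. From day 4 to day 6 it was not called in any type, with log2 fold changes between -0.38 in p0-1 and 0.35 in pMN. At day 6 the p0-1 samples had 128, 127, 143, 136 and 155 and the pMN samples 249, 223, 222 and 232, which did not overlap but differed by less than 2-fold (log2 fold change 0.75, SE 0.11 on the VST scale, limma adjusted p = 0.001). Of 15 regions with values inside the Nr6a1 gene, 12 were annotated to another gene and are not members, as were 16 of 18 inside Hmga2 and all 3 inside Nr2f1 and Nr2f2.

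**Figure D3:**
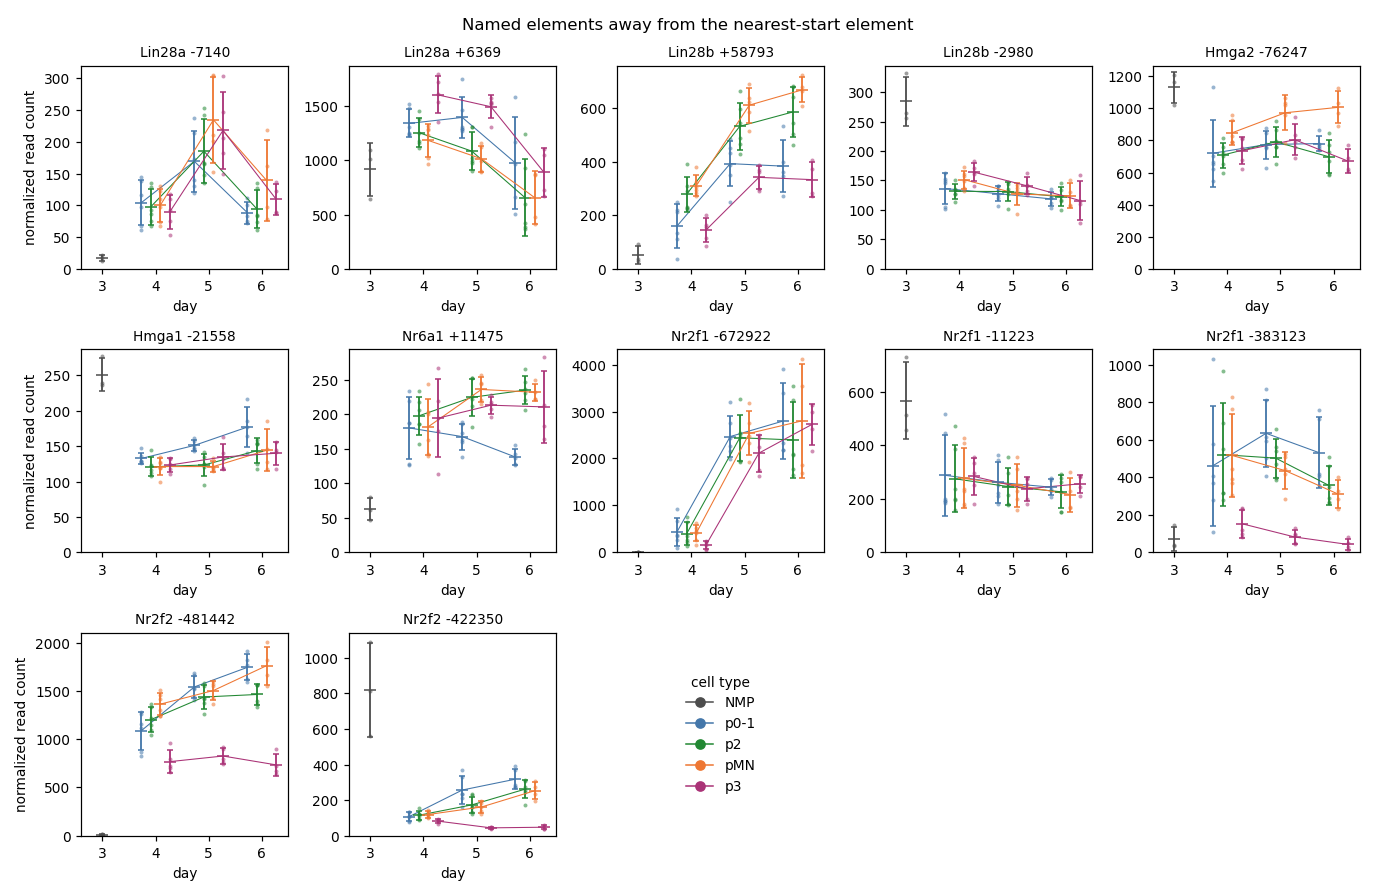
Normalized read count (y axis) by day (x axis) and cell type (color) at the 12 named elements other than those nearest the starts. Points are samples, dashes are means and bars are SD; Nr2f1 -672922 and Nr2f2 -481442 rose from means of 7.45 and 12.3 in NMPs, and p3 lay below the other NP types at Nr2f1 -383123, Nr2f2 -481442 and Nr2f2 -422350 at day 6.

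The next comparison asks what changed between day 4 and day 6 within each cell type. In pMN, 12 of 41 rose and 0 fell (background 17.8% and 7.37%). In p0-1, 10 of 36 rose and 0 fell (background 14.6% and 7.21%), but without replicate 2 only 4 rose, with samples centered on their medians 6, and without the library of the largest promoter share 12 were called. In p2, 9 of 39 rose and 1 fell (background 17.5% and 7.48%). In p3, 12 of 43 rose and 1 fell (background 16.7% and 7.43%), and without the shallow p3 libraries 10 rose and 0 fell. At an unadjusted p under 0.05 by limma 6 members were lower at day 6 in pMN and 2 in p0-1, and voom on the recovered reads called 0 in both. The median log2 fold change of the tested members was 0.45 in p0-1, 0.29 in p2, 0.54 in pMN and 0.24 in p3, against 0.23, 0.27, 0.25 and 0.18 over all tested regions. Without the filter on the mean, 25 of the 108 rose and 11 fell in pMN, beside 19.9% and 16.8% of all regions.

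Nr2f1 -672922 rose further in every cell type. In pMN the day 4 mean was 408 ± 172 (SD, n = 6) and the day 6 mean 2803 ± 1214 (SD, n = 4) (log2 fold change 2.78, SE 0.35 on the VST scale, limma adjusted p = 9e-06), and the 4 samples of day 6 had 1856, 3546, 1690.4 and 4119.7, with both replicate 2 samples below both replicate 3 samples. In p3 it went from 76.7, 43.6, 212, 166 and 238 to 3141, 2984, 2156 and 2621 (log2 fold change 4.21, SE 0.38 on the VST scale, limma adjusted p = 1.7e-06). No day 6 sample of either type overlapped day 4. In p0-1 and p2 the log2 fold changes were 2.67 and 2.59.

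Lin28b +58793 was called in all 4 types from day 4 to day 6. In pMN the 4 samples of day 6 had 678, 664, 607 and 722, above the highest of day 4 at 380.0 (log2 fold change 1.11, SE 0.10 on the VST scale, limma adjusted p = 5.1e-07). In p3 the values were 86.8, 114, 156, 201 and 162 at day 4 and 406, 282, 371 and 273 at day 6 (log2 fold change 1.21, SE 0.22 on the VST scale, limma adjusted p = 0.000705). In p0-1 and p2 the log2 fold changes were 1.26 and 1.07. With samples centered on their medians all 4 were under 2-fold, between 0.76 in pMN and 0.96 in p3. Leaving out replicate 2 put p0-1 (limma adjusted p = 0.0734), p2 (log2 fold change 0.94) and p3 (0.87) below the threshold, as leaving out the 3 shallow p3 libraries did for p3 (0.87) and leaving out replicate 3 did for p0-1 (0.94).

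Nr2f2 -422350, which had closed by day 4, opened again in part in p0-1, p2 and pMN. In pMN it went from between 98.4 and 144 with a median of 119 to 276, 306, 194 and 234 at day 6 (log2 fold change 1.08, SE 0.14 on the VST scale, limma adjusted p = 3.54e-05), still below the lowest NMP sample at 558. The log2 fold change was 1.56 in p0-1 and 1.19 in p2, and with samples centered on their medians it was 0.91 in p2 and 0.74 in pMN, not called. In p3 the values were 86.8, 87.2, 78.9, 63.8 and 94.5 at day 4 and 62.7, 52.9, 38.1 and 37.9 at day 6, where the element was too weakly open to be tested. One element was near 0 at day 4: Nr2f1 -938048, singled out after its values were seen, had a mean in pMN of 3.52 ± 3.32 (SD, n = 6) at day 4, then 81.3 ± 28.0 (SD, n = 5) at day 5, and by day 6 472 ± 149.9 (SD, n = 4) (limma adjusted p = 2.79e-09 for day 6 against day 4). That element passed the filter on the mean only through day 6. Nr2f1 -8859 rose in p0-1 and p3, at 1.19 and 1.28, and had 0.66 in p2 and 0.87 in pMN, which missed the threshold.

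The comparison of p3 with pMN asks how the 2 most ventral types differ at each day. At day 4, 2 of 36 tested members were higher in p3 and 3 lower (background 1.93% and 6.11%), and without the 3 shallow p3 libraries of 100 nM 2 were higher and 0 lower, while without replicate 1 it was 1 each way. At day 5, 4 of 45 were higher and 4 lower (background 7.04% and 12.2%). At day 6, 6 of 48 were higher and 11 lower (background 10.4% and 15.6%), of which 9 of the 17 were at Nr2f2, 6 at Nr2f1 and 2 at Lin28b. The elements tested were 17 at Nr2f2, 16 at Nr2f1 and 6 at Lin28b. Neuronal markers also differed at day 6: their sum lay between 2799 and 3606 in pMN and between 1819.8 and 3035 in p3, and Dcx lay between 131 and 166 in pMN and between 39.7 and 71.6 in p3, without overlap. Their part in these differences was not tested. With the 2 SAG concentrations averaged within a replicate, which leaves 2 values a type, 7 were called at day 6, 1 higher and 6 lower. Without the filter, 18 of the 108 were higher and 27 lower at day 6, beside 13.5% and 16.5% of all regions.

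Nr2f1 -383123 (chr13:78580915-78583077, intergenic) was lower in p3 at all 3 days. It was picked for the largest p3 difference at day 6 among Nr2f1 elements with a mean above 100, so its values entered the choice. At day 4 the 5 p3 samples had 82.8, 118, 231, 96.2 and 235 and the 6 pMN samples lay between 306 and 827 with a median of 417. At day 6 the p3 samples had 79.1, 50.9, 11.5 and 26.2 and the pMN samples 281, 400.0, 228 and 329 (log2 fold change -2.88, SE 0.39 on the VST scale, limma adjusted p = 0.000299). The groups did not overlap at any of the days, and the log2 fold changes at days 4 and 5 were -1.76 and -2.42, the first losing its call without replicate 1 (limma adjusted p = 0.0182) or without the shallow p3 libraries (0.0117). At day 6 the 2 p3 samples at 500 nM were the lowest, with a mean of 18.9 against 65.0 at 100 nM. Within p3 it fell from day 4 to day 6 (log2 fold change -1.86, SE 0.41 on the VST scale, limma adjusted p = 0.00432), though not with the 2 SAG concentrations averaged (limma adjusted p = 0.0142), and without the shallow p3 libraries or without replicate 3 its mean was too low for it to be tested.

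The Nr2f2 element with values nearest its gene also set p3 apart. Nr2f2 -2414 (chr7:70367605-70370715), in intron 1 of the neighboring noncoding gene B130024G19Rik, had 218, 240.1, 221 and 212 in p3 at day 6 and 709, 758, 587 and 585 in pMN (log2 fold change -1.57, SE 0.11 on the VST scale, limma adjusted p = 7.42e-06). At day 5 the p3 samples had 322, 336, 391, 374 and 318 and the pMN samples 863, 814, 917, 799 and 728 (log2 fold change -1.24, SE 0.08 on the VST scale, limma adjusted p = 7.31e-08), and at day 4 the log2 fold change was -0.37 (limma adjusted p = 0.0408). The samples of p2 and pMN did not quite separate at day 6, with p2 at its lowest on 753 and pMN at its highest on 758, and that pair was not tested. In order of the day 6 means, p0-1 had 1045 ± 119 (SD, n = 5), p2 820.4 ± 65.5 (SD, n = 6), pMN 659.8 and p3 222, and p0-1 and pMN differed by less than 2-fold (log2 fold change -0.66, SE 0.11 on the VST scale, limma adjusted p = 0.00141).

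Nr2f2 -481442 had 897, 724, 671 and 645 in p3 and 1665, 1823, 1556 and 2004 in pMN at day 6 (log2 fold change -1.26, SE 0.12 on the VST scale, limma adjusted p = 2.22e-05), and Nr2f2 -422350 had a log2 fold change of -2.40 there (limma adjusted p = 2.33e-05). Nr2f2 -422350 was also picked for the largest p3 difference at day 6 at its locus, so these values entered the choice. Other elements of the same loci were higher in p3. Nr2f2 -758769, singled out after its values were seen, had 213, 216, 196 and 214 in p3 and 5.38, 13.1, 8.02 and 25.7 in pMN at day 6 (log2 fold change 4.0, limma adjusted p = 1.26e-05). Of the 2 Lin28b elements called, Lin28b +11550, chosen in the same way and likewise past the filter only through p3, had 168, 193, 127 and 236 in p3 and 24.2, 55.4, 32.1 and 64.2 in pMN (log2 fold change 2.04, SE 0.28 on the VST scale, limma adjusted p = 0.000468). The other, Lin28b +58793, was lower in p3 (log2 fold change -1.0, SE 0.14 on the VST scale, limma adjusted p = 0.000218), without overlap, but lay at the 2-fold limit and lost its call in 4 of the alternatives that keep the fold threshold, for example without replicate 3 at -0.73. It too was picked for the largest p3 difference at day 6 at its locus.

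**Figure D4:**
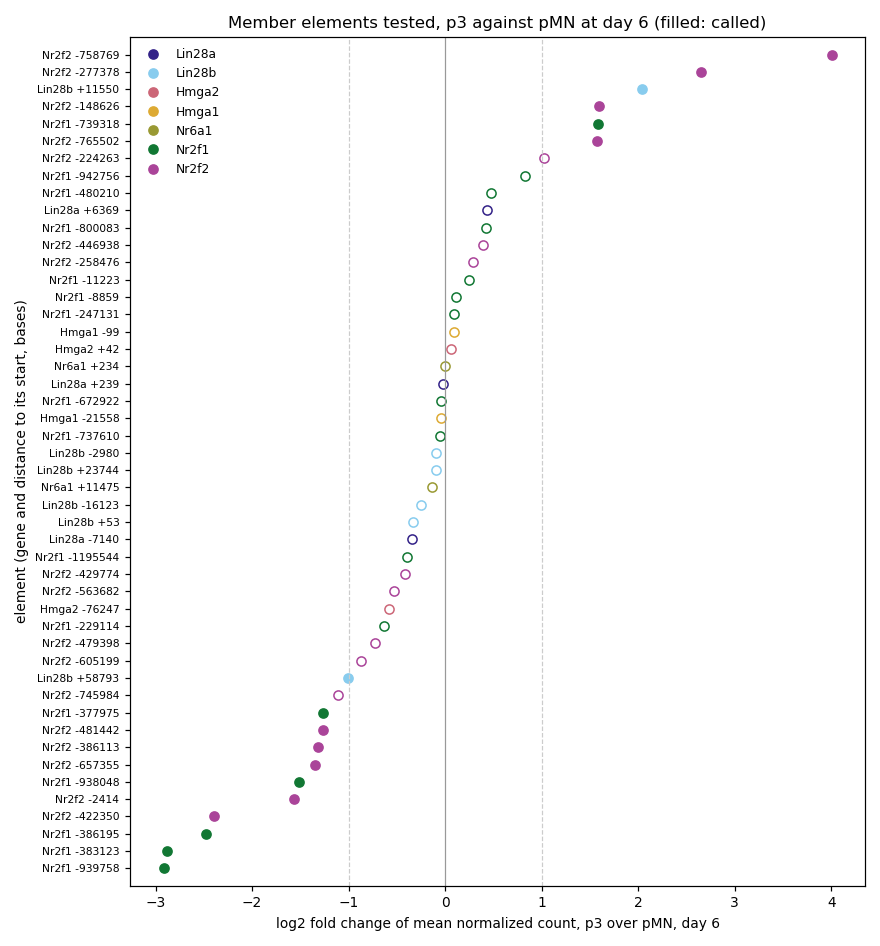
Log2 fold change of mean normalized count, p3 over pMN at day 6 (x axis), for the 48 member elements tested (y axis, sorted), colored by gene. Filled points were called and dashed lines mark 2-fold; 6 called elements lie to the right and 11 to the left, and the elements over the starts of Lin28a, Hmga2, Hmga1 and Nr6a1 lie near 0.

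Between p0-1 and pMN at day 6, 3 of 45 tested members were higher in pMN and 0 lower (background 9.32% and 3.08%), all 3 at Nr2f1. At an unadjusted p under 0.05 by limma 7 were lower in pMN, and voom called 0. The 3 called higher in pMN were Nr2f1 -939758, Nr2f1 -938048 and Nr2f1 -800083, named because they are few, with log2 fold changes of 3.68, 1.77 and 2.78. Nr2f1 -939758 had 15.3, 22.8, 19.4, 12.8 and 26.1 in p0-1 and 207, 262, 195 and 323 in pMN (limma adjusted p = 1.08e-05). With the 2 SAG concentrations averaged 1 of the 3 was called.

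The difference between p3 and pMN in the change from day 4 to day 6 was tested as an interaction. Of 42 members tested, 0 had a more positive change in p3 and 4 a more negative one (background 4.38% and 5.82%), and all 4 were at Nr2f2. At an unadjusted p under 0.05 by limma 4 had a more positive change in p3, and voom called 0. The pMN and p3 means went in opposite directions at 3 of the 4 called: at Nr2f2 -422350 from 119 to 253 in pMN and from 82.2 to 47.9 in p3, at Nr2f2 -2414 from 444 to 659.8 and from 343 to 222, and at Nr2f2 -605199 from 343 to 696 and from 418 to 381. None of the 3 passed the test within p3, where Nr2f2 -2414 had a log2 fold change of -0.62 (limma adjusted p = 0.00627), Nr2f2 -605199 had -0.13 (limma adjusted p = 0.405) and Nr2f2 -422350 was not tested. At Nr2f2 -657355 both means were higher at day 6, 508 against 97.8 in pMN and 200.2 against 99.0 in p3. At Nr2f2 -422350, picked partly for its p3 difference at day 6, the difference was -1.67 on the VST scale (SE 0.23, limma adjusted p = 3.23e-05) and at Nr2f2 -2414 it was -1.13 (SE 0.18, limma adjusted p = 0.000138). The other two, Nr2f2 -657355 and Nr2f2 -605199, had -1.35 and -1.09. Without replicate 1, without replicate 3, without the shallow p3 libraries or with the SAG concentrations averaged 2 of the 4 were called. At Nr2f1 -672922, which rose in both types, the difference was 1.53 and missed the threshold (limma adjusted p = 0.0599).

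Other genes of the Lin28 and let-7 pathway and of temporal patterning were counted for context. Of 40 genes listed, 30 had elements with values, 260 in all. From NMPs to pMN at day 4, 18 of 89 tested rose and 25 fell, and from day 4 to day 6 in pMN 24 of 92 rose and 3 fell, beside the backgrounds given above. Mir99ahg, the host gene of a let-7 cluster with miR-99a and miR-125b, had 3 of 3 tested elements rising from NMPs to pMN at day 4 and 5 of 6 from day 4 to day 6. Its element at 492 bases from the start had means of 32.7 normalized counts in NMPs, 139 in pMN at day 4 and 851 at day 6. Mir100hg, which hosts the related cluster with miR-100, had 3 of 3 tested elements rising from day 4 to day 6 in pMN, and all 3 were lower in p3 than in pMN at day 6. Over the whole list 8 of 92 tested were higher and 14 lower in p3 at day 6, shares close to the 10.4% and 15.6% of all regions, and Mir99ahg, Mir100hg and Trim71 were singled out after their values were seen. Trim71, the homolog of the worm timing gene lin-41 and a let-7 target, had 1 of 8 tested elements rising and 3 falling from NMPs to pMN at day 4.

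The elements nearest the gene were also compared with promoter elements of other genes by their pattern over the 25 condition means, as a description over conditions that share cultures and days. For Lin28b +53 the 3 most alike were at Dyrk2, Nedd9 and Ttk, with Pearson r of 0.935, 0.931 and 0.926. For Lin28a +239 they were at Kif20b, Ptpn14 and Cnot9 (0.792, 0.784 and 0.78), for Hmga2 +42 at Gm15569, Rnf11 and Pip5k1b (0.964, 0.963 and 0.962), for Hmga1 -99 at Gm3558, Gm20556 and Syt3 (0.926, 0.909 and 0.908), and for Nr6a1 +234 at Hltf, Dennd4b and Nln (0.967, 0.957 and 0.956). For Nr2f1 -8859 they were at Kctd13, Gm33104 and Fbxw7 (0.971, 0.96 and 0.957). For Nr2f2 -2414 they were at Arpin, Maob and Pax6 (0.937, 0.936 and 0.933), and Pax6 itself is used to sort p0-1 and p2.

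The 2 SAG concentrations of a cell type and day were also set side by side. Over 228 pairs of means, 19 elements in 12 cell types and days, the ratio of the higher to the lower concentration had a median of 0.958 and passed 2-fold in 4. Those 4 were Nr2f1 -672922 at day 4 in p0-1 (609 at 0 nM and 268 at 10 nM) and in p2 (542 at 10 nM and 251 at 100 nM), and Nr2f1 -383123 at day 4 in p0-1 (629 and 294) and at day 6 in p3, given above. Each of these means rests on 2 or 3 samples and was not tested.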

How the data were processed

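CaTS-ATAC was done on 67 samples of HM1 mouse cells. The authors trimmed and aligned reads to mm10, called peaks with MACS, made a consensus peak set with counts per element and transformed the counts with DESeq2; the deposited values are log2 (VST) values per element and sample, without counts. The deposited annotation gives the nearest start and the distance to it. VST values were inverted here, with the value at a count of 0 as the constant, and gave whole reads within 5.98e-11 for 100% of the low values examined. Grouping followed the sample labels; 1 table held all samples. Title and description gave different replicate numbers for 15 samples, and the numbers in the titles were used.

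Tests used limma 3.58.1 in R 4.3.3 with a variance trend on VST values, two-sided, without a block, on elements averaging over 100 normalized counts across the groups compared, with Benjamini-Hochberg adjustment over all of them; n in each group is that given with its values. The code was tested on simulated data. P-values measure the spread between these samples. The study describes its replicates as separate differentiations, but the 2 SAG concentrations pooled here share replicate numbers. Samples of a group may thus share a differentiation, and the p-values treat them as separate. At day 6 the 4 samples of pMN and the 4 of p3 were all of replicates 2 and 3. Members, gene lists and tests were chosen with earlier results of these data known. Named elements were, for each gene, the one nearest the start and, above a mean of 100, those with the largest rise and fall from NMPs to day 6 and the largest p3 difference at day 6. Apart from those nearest the start, their values thus entered the choice, and p-values for those differences are not independent of it. Replicate numbers paired the samples (every pair's correlation of deviations over 0.1) for day 4 against day 6 of pMN, pMN against p3 at days 5 and 6 and p0-1 against pMN at day 6, and not for the others. Alternatives were a replicate block, a log2 fold change above 2, no filter, the fold from VST, median centering, voom on the recovered reads, averaged SAG concentrations and leaving out each replicate, and, chosen after seeing the data, leaving out the shallow p3 libraries or the day 4 p0-1 library at 10 nM, replicate 3. Sequences are from RefSeq's GRCm38 assembly. Figures were drawn with Python 3.11.15 and matplotlib 3.10.9.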

Additional observations from a re-analysis of the deposited data

Results flagged for a closer look

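Of 228 groups of 4 to 6 samples at the named elements, 14 held a sample whose gap to its neighbor passed Dixon's critical value, where chance gives about 1 in 20. Of these, 3 belong to the day 4 p0-1 library at 10 nM, replicate 3, the one with the largest promoter share: Hmga2 +42 at 1917 normalized counts (next 1319.9), Hmga2 -76247 at 1134 (next 700.4) and Hmga1 -99 at 4171 (next 2728), each the highest of 6. Another 2 belong to the pMN library of day 5 at 500 nM, replicate 3, the lowest of 5 at Lin28b -2980 with 93.8 and at Nr6a1 +234 with 969. In p3 at day 5 Lin28a +239 had a lowest sample of 1739 and Lin28a +6369 one of 1309. In p2 Lin28b +53 had a lowest sample of 135 at day 4, and Nr2f2 -2414 had highest samples of 669 at day 4 and 1011 at day 5, both at 10 nM in replicate 3. Hmga2 -76247 had a highest sample of 864 in p0-1 at day 6. Hmga1 -99 had a highest sample of 2319 in pMN at day 6 and a lowest of 1865 in p3 at day 4, and Nr6a1 +234 a highest of 1262 in p3 at day 6.

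The change from day 4 to day 6 differed between p3 and pMN, by the limma interaction test, at Nr2f2 -2414 (-1.13 on the VST scale, adjusted p = 0.000138) and Nr2f2 -422350 (-1.67, adjusted p = 3.23e-05).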

How the results depend on the processing

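Of 134 alternative values for counts of called elements, 102 stayed within 1.5 times the count reported. With no filter on the mean the counts were 57, 73, 75 and 66 from NMPs to p0-1, p2, pMN and p3 at day 4, 35, 37, 36 and 43 from day 4 to day 6 of the same types, 19, 37 and 45 for pMN against p3 at days 4, 5 and 6, 13 for p0-1 against pMN and 19 for the interaction, since 108 elements were then tested. A log2 fold change above 2 left 4, 3, 6 and 5 from day 4 to day 6 of p0-1, p2, pMN and p3, 0, 3 and 7 for pMN against p3 at days 4, 5 and 6, and 0 for the interaction. Median centering left 6 from day 4 to day 6 of p0-1, and the fold from VST left 3 for pMN against p3 at day 4. Averaging SAG concentrations left 7 for pMN against p3 at day 6, 1 for p0-1 against pMN and 2 for the interaction. Leaving out the shallow p3 libraries left 2 for pMN against p3 at day 4 and 2 for the interaction. Leaving out each replicate in turn gave 4 to 11 for day 4 against day 6 of p0-1, 2 to 6 for pMN against p3 at day 4 and 2 to 4 for the interaction. For the named elements, 557 of 631 alternative values kept their call and direction and 72 lost the call; Lin28a +239 from NMPs to pMN turned to 0.30 under centering and Nr2f2 -2414 in the same comparison ranged from -0.122 to 0.162 when each replicate was left out, neither of them called. The cause of these shifts was not tested. With a replicate block the counts were 15, 20, 20 and 19 from NMPs to day 4, 10, 10, 12 and 13 from day 4 to day 6, 6, 8 and 19 for pMN against p3, 4 for p0-1 against pMN and 6 for the interaction, and the block changed no call of a named element. Low read numbers limit the weakly open elements, most of which were not tested.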
